A study of Mus musculus with 6 samples.

Results

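The MYC, MAX and MXD network is a set of transcription factor genes whose protein products pair with one another, and here it was described in mouse Th17 cells labelled control or KO for Rtf1. Its 10 members were chosen by name from the 31017 genes of the count table: Myc and Mycn, their partner Max, the opposing factors Mxd1, Mxi1, Mxd3, Mxd4 and Mnt, and the related pair Mlx and Mlxip. All 10 were present in the table, and all 10 passed the filter on low counts that left 14268 genes for testing. Th17 cells are helper T cells that secrete interleukin 17, and RTF1 is a transcription elongation factor that works with the PAF1 complex and promotes ubiquitin attachment to histone H2B. The series holds 6 RNA-seq libraries from Th17 cells differentiated in culture, 3 labelled control with genotype WT and 3 labelled KO, which the series describes as lacking RTF1. The allele, any Cre driver, the mouse strain and age, the culture conditions and the time of harvest are not given in the sources used here. The labels do not say whether the 3 libraries of a group came from separate animals or cultures. Sex-linked transcripts, given below, put replicate 3 of each group apart from replicates 1 and 2 as male against female, so each group held material from more than 1 animal. Whether replicates 1 and 2 came from different animals is not known. The tests set the difference between groups against the spread between libraries within the groups. In the main fit that spread includes any difference between male and female libraries.

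MYC and MYCN bind DNA only as dimers with MAX, and the preferred site of these dimers is the E-box with the letters CACGTG. MXD1, MXI1, MXD3, MXD4 and MNT also dimerise with MAX and bind the same site, but they recruit the SIN3-HDAC corepressor and so oppose MYC at shared targets. MLX pairs with MLXIP, also called MondoA, which responds to sugar phosphates, and it can pair with some MXD proteins and MNT as well. In T cells, MYC is induced on activation and drives growth, nutrient uptake and ribosome production, whereas MXD1 is known mainly from differentiating and resting cells.

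The promoters of the members were read from RefSeq windows of build GRCm38.p6, which run from 250 bases before to 50 bases after an annotated start site. Of the 10 members, 9 had at least 1 window, with 11 windows in all because Mxi1 had 3, and Myc had no entry. Both strands were searched for CACGTG, whose letters read the same on either strand. The motif was found in 4 of these 9 genes, against 8.09% of all 27025 genes in the promoter table and 11.6% of the 10397 tested genes that have an entry. The matches were in Max (chr12:76962219-76962278, minus strand), Mlx (chr11:101087223-101087282, plus strand), Mnt (chr11:74830774-74830833, plus strand) and Mxd4 (chr5:34187897-34187956, minus strand). These 60-base stretches are printed 5′ to 3′ on the gene's own strand because they hold the site that the network's own dimers bind, which is in capitals.
Max: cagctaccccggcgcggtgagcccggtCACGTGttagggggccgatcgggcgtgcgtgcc
Mlx: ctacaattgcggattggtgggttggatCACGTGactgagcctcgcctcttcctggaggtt
Mnt: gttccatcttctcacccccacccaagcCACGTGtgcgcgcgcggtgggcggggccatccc
Mxd4: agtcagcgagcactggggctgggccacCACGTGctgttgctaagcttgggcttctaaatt
The motif began 3 bases before the start site in Max, 40 in Mlx, 123 in Mnt and 219 in Mxd4, so its distance from the start differed between members. The 300-base window of Mxd1, the member whose RNA differed most between the groups, held no CACGTG and is shown for comparison (chr6:86669110-86669409, minus strand).
Mxd1: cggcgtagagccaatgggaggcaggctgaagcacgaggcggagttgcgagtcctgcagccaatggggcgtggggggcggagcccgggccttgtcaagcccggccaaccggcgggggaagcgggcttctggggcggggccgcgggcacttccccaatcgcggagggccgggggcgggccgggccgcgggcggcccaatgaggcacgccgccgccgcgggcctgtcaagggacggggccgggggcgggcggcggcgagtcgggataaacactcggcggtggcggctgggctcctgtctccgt
Bases G and C made up 76.7% of that window, the highest share among the 11 windows of the members. A motif match describes letters only, and binding was not measured in these libraries.

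The libraries held 16489813 to 51271226 counts. Levels are given as CPM, read counts brought to one library total with TMM factors, means are given with the SD over 3 libraries, and a gene was called where the adjusted p-value of edgeR's quasi-likelihood test, over all 14268 genes, was under 0.05. Rtf1 itself held 88.3 to 94.0 CPM in control and 26.2 to 45.3 CPM in KO (log2 fold change -1.42, edgeR adjusted p = 0.000755), lower in every KO library, and 37.3% of the control mean remained. Loss of the RTF1 protein is taken from the labels and was not measured. All 5 T helper markers were present, and they differed in direction. Cd4 fell from 443 to 539 CPM in control to 218 to 290 in KO, and Cd3e rose from 180 to 209 CPM to 289 to 347, so their summed level, 1137 to 1477 CPM in control and 1071 to 1353 in KO, hides changes of its members. Summed levels of the 6 Th17 markers were 1603 to 2135 CPM in control and 594 to 1253 in KO, lower in every KO library, and their part in the results was not tested. Markers of B cells, myeloid cells, erythroid cells and fibroblasts each summed to at most 3.61 CPM in any library, and those of CD8 and NK cells to at most 14.9 CPM, with Ncr1 and Klrb1c at 0 counts throughout. The myeloid sum was 0.784 to 0.790 CPM in control and 1.84 to 3.61 in KO, and its part in the results was not tested. Y-linked genes were counted 11376 times in control replicate 3, 5147 times in KO replicate 3 and 1 to 3 times in the other libraries. Xist, which is transcribed from the inactive X chromosome of females, was counted 5 times and 1 time in those replicates and 14668 to 28176 times in the other libraries. Replicate 3 was thus male and replicates 1 and 2 were female in both groups, so the replicate number follows sex, and the groups had the same makeup by sex. Control replicate 3 stood apart from the other controls for several members below, so values without it are given where they differ, and the fit on replicates 1 and 2 alone compares female libraries only.

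Of the 10 members, 7 were called, 5 higher and 2 lower in KO. Across all tested genes 46.1% were called, 23.2% higher and 22.9% lower, so a call by itself is common in this comparison. The median log2 fold change of the members was 0.39, beside 0.01 for all tested genes. The genes that oppose MYC were split. Mxd1, Mxd4 and Mnt were called higher, Mxd3 was called lower, and Mxi1 was not called (log2 fold change -0.31). Max and Mlxip were also called higher, and Myc was called lower. In 9 of the 10 members the KO libraries all lay on one side of the control libraries, with Mycn the exception, and 57.9% of all tested genes showed such a separation. When 1 library was left out, between 3 and 7 members were called: 4 without control replicate 1, 3 without control replicate 2, 3 without KO replicate 2 and 4 without KO replicate 3. Fewer genes were called in these fits overall as well: 5221 of 14991 tested genes without control replicate 1, 5827 of 14491 without control replicate 2, 4460 of 14349 without KO replicate 2 and 5038 of 14888 without KO replicate 3. The calls of Myc, Mxd1 and Mlxip held in each fit that left out 1 library. In the female libraries alone 7 members were called, 5 higher and 2 lower, where 44.3% of all tested genes were called. Each difference here is one in RNA from a whole culture, where fewer cells expressing a gene and less RNA per cell cannot be told apart.

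**Figure D1:**
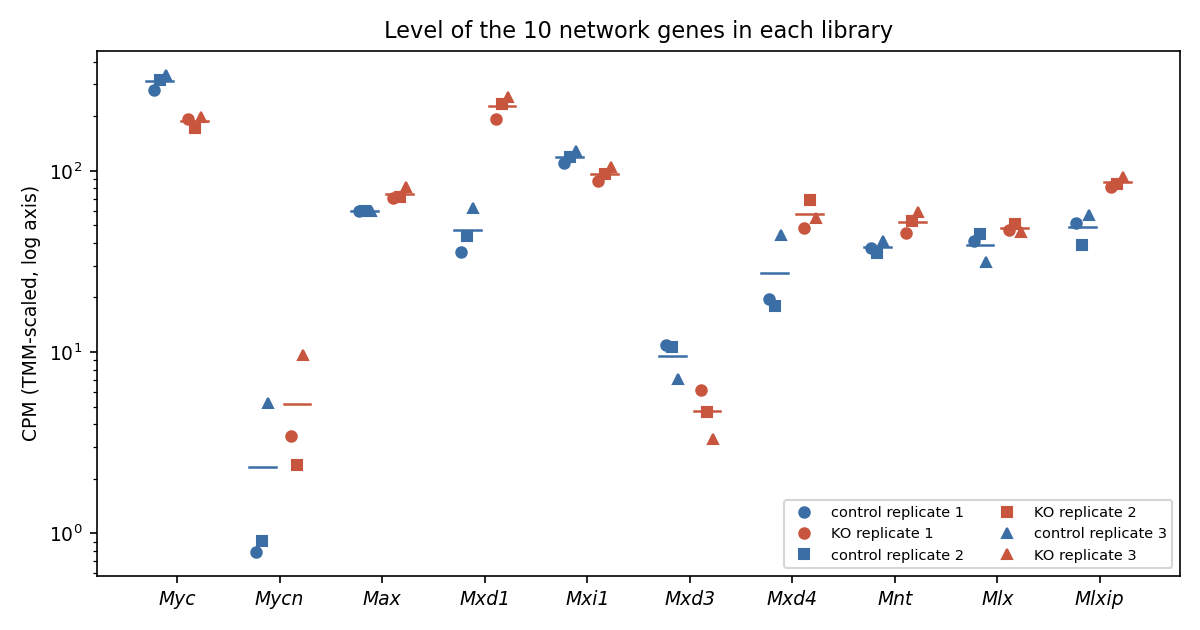
Level of each of the 10 network genes in TMM-scaled CPM (vertical log axis) in the 3 control libraries (blue) and the 3 KO libraries (red), with circles, squares and triangles for replicates 1, 2 and 3 and a line at each group mean. Mxd1 moves from 35.7 to 62.2 CPM in control up to 194 to 255 CPM in KO, while Myc moves from 281 to 339 CPM down to 171 to 199 CPM.

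Myc (chr15:61985391-61990374, plus strand, GENCODE M21 on GRCm38) encodes the activator at the centre of the network. Its level was 281, 315 and 339 CPM in the control libraries (here and below in the order of replicates 1, 2 and 3) against 192, 171 and 199 CPM in the KO libraries. Every KO library lay below every control library, with a clear gap between the groups. Mean levels of 312 ± 29.5 and 188 ± 14.6 CPM (SD, n = 3 per group) gave a log2 fold change for Myc of -0.73 with an SE of 0.123 (edgeR adjusted p = 0.00193), which left 60.1% of the control level. Across the 6 fits that left out 1 library, the log2 fold change of Myc ran from -0.87 to -0.67. The noncoding gene Pvt1, which neighbours Myc, held 20.2, 13.95 and 22.4 CPM in control and 13.9, 11.0 and 14.4 CPM in KO (log2 fold change -0.53, edgeR adjusted p = 0.0643), so the groups overlapped slightly and it was not called. With the replicate number as a block Pvt1 passed the threshold (edgeR adjusted p = 0.0173), as it did by DESeq2 (adjusted p = 0.0394) and without control replicate 2 (-0.72, edgeR adjusted p = 0.0185).

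Mycn (chr12:12936093-12941914, minus strand), the paralog of Myc best known from embryonic and neural tissue, was present at a low level. Only 13, 44 and 220 reads were counted in the control libraries, against 91, 89 and 189 in the KO libraries. The levels on the CPM scale were thus 0.790, 0.908 and 5.23 for control libraries, against 3.45, 2.38 and 9.61 for KO. Replicate 3 was the highest library of each group, the groups overlapped, and KO was above control within each pair of equal number. The log2 fold change was 1.10 (SE 0.763, edgeR adjusted p = 0.265), not called. The call appeared under the replicate block (1.38, edgeR adjusted p = 0.00514), without control replicate 3 (2.49, adjusted p = 0.00701) and with replicates 1 and 2 alone (1.75, adjusted p = 0.00787), and its value was 0.30 without KO replicate 3 (adjusted p = 0.785). Mycl, the remaining MYC family gene, held 0.0826 to 1.33 CPM in control and 0.102 to 0.304 CPM in KO and did not pass the filter.

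Max (chr12:76937269-76962201, minus strand) encodes the shared partner of these proteins. It held 60.2, 60.1 and 60.3 CPM in control against 70.9, 71.8 and 81.2 CPM in KO. The control libraries were almost identical and all KO libraries lay above them. The log2 fold change was 0.31 (SE 0.105, edgeR adjusted p = 0.0392), a small rise that was called by a narrow margin. It was lost in each of the 6 fits that left out 1 library, with adjusted p-values from 0.0551 (without KO replicate 1) to 0.211 (without control replicate 1) and log2 fold changes of 0.24 to 0.34. It was also lost with DESeq2 size factors (adjusted p = 0.0536), upper-quartile factors (0.0527), without a filter (0.0894), by DESeq2 (0.0617) and with replicates 1 and 2 alone (0.138).

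Mxd1 (chr6:86647042-86669161, minus strand), the founding MXD repressor, changed more than any other member. It held 35.7, 43.5 and 62.2 CPM in control against 194, 233 and 255 CPM in KO. The lowest KO library was thus far above the highest control library. The means were 47.1 ± 13.6 and 227 ± 31.0 CPM (SD, n = 3), a 4.81-fold rise (log2 fold change 2.27, SE 0.209, edgeR adjusted p = 0.000181). By absolute log2 fold change Mxd1 ranked 718 among the 14268 tested genes. With 1 library left out, the log2 fold change ran from 2.04 to 2.45, and it stayed called in all of those fits.

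The other MXD genes did not move together. Mxd4 (chr5:34173883-34187720, minus strand) held 19.5, 18.0 and 44.0 CPM in control and 48.6, 69.3 and 54.9 CPM in KO. Control replicate 3 lay close to the KO range and the other controls far below it. Its log2 fold change was 1.08 (SE 0.324, edgeR adjusted p = 0.0240), 1.56 without control replicate 3 and 0.93 without KO replicate 2, where the call was lost (adjusted p = 0.0884), as it was without control replicate 1 (0.84, adjusted p = 0.0825) and without control replicate 2 (0.83, adjusted p = 0.0822). Mxd3 (chr13:55325168-55329823, minus strand), an MXD protein known from proliferating cells in S phase, went the other way. It held 10.9, 10.6 and 7.13 CPM in control and 6.19, 4.67 and 3.30 CPM in KO, each KO library below each control. The log2 fold change of Mxd3 was -1.01 (SE 0.284, edgeR adjusted p = 0.0183). Without control replicate 3, the lowest control library, it was -1.24 (adjusted p = 0.00376). The call was lost without control replicate 1 (-0.98, adjusted p = 0.0512), control replicate 2 (-0.93, adjusted p = 0.0537), KO replicate 2 (-0.996, adjusted p = 0.0628) and KO replicate 3 (-0.82, adjusted p = 0.0555).

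Mxi1 (chr19:53310518-53375810, plus strand), also named Mxd2 and the most abundant MXD transcript per length in control, held 110.4, 119.7 and 129 CPM in control and 87.7, 96.2 and 105 CPM in KO. The KO libraries all lay below the control libraries by a narrow gap. The log2 fold change was -0.31 (SE 0.116, edgeR adjusted p = 0.0530), just short of the threshold. The replicate block brought it past the threshold (adjusted p = 0.0244), as did leaving out control replicate 1 (-0.43, adjusted p = 0.0425).

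Mnt (chr11:74830920-74845725, plus strand) encodes a broadly expressed MAX partner that counters MYC in most cell types. It held 37.7, 35.1 and 41.2 CPM in control and 45.4, 52.5 and 59.5 CPM in KO. All KO libraries exceeded all controls, by a modest margin. The log2 fold change was 0.47 (SE 0.136, edgeR adjusted p = 0.0218), and the call was lost without control replicate 1 (0.39, adjusted p = 0.106), control replicate 2 (0.40, adjusted p = 0.0745), KO replicate 2 (0.47, adjusted p = 0.0713) or KO replicate 3 (0.37, adjusted p = 0.0890). Mga, a large MAX partner that also carries a T-box domain and was not chosen as a member, held 166, 155 and 187 CPM in control and 141, 131 and 143 CPM in KO (log2 fold change -0.29, edgeR adjusted p = 0.0616). It was not called, except under the replicate block (adjusted p = 0.0391) and without control replicate 2 (-0.36, adjusted p = 0.0379).

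In the MLX branch, the partner that senses sugar phosphates rose and MLX did not pass the test. Mlxip (chr5:123394798-123457932, plus strand) held 51.6, 39.2 and 56.9 CPM in control and 81.8, 84.8 and 92.5 CPM in KO, with no overlap. Its log2 fold change was 0.81 (SE 0.149, edgeR adjusted p = 0.00291), and it stayed between 0.66 and 0.88 when 1 library was left out. Mlx (chr11:101087277-101092207, plus strand) held 40.9, 44.7 and 31.2 CPM in control and 47.0, 51.1 and 46.2 CPM in KO. Its KO libraries were all higher, but control replicates 1 and 2 came close to them. The log2 fold change of Mlx was 0.31 (SE 0.151, edgeR adjusted p = 0.126), or 0.11 without control replicate 3. Mlx is uncertain, because 19.3% of its exonic bases overlap Psmc3ip on the opposite strand and the strand setting of the counting is not given in the sources used here. Psmc3ip fell, from 14.97 ± 4.35 CPM to 6.76 ± 3.01 (SDs of 3 libraries; log2 fold change -1.14, edgeR adjusted p = 0.0221). Mlxipl, the MLX partner known from liver, held at most 0.203 CPM in any library and did not pass the filter. Apart from Mlx, at most 6.06% of a member's exonic bases overlap another gene, and at most 0.411% of its stretches of 50 bases are shared with the transcripts of other genes.

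**Figure D2:**
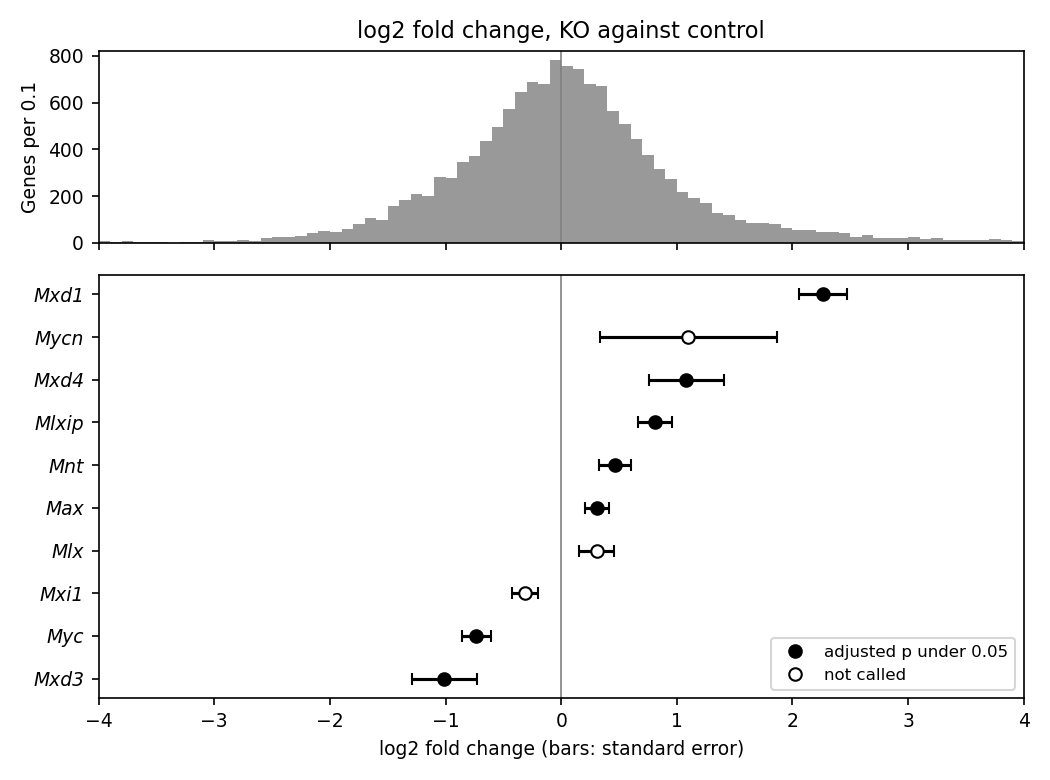
Upper panel, number of genes per 0.1 of log2 fold change (KO against control) for the tested genes, of which 160 lie beyond the axis limit of 4 in either direction; lower panel, log2 fold change of the 10 network genes with bars for the standard error, filled where the edgeR adjusted p was under 0.05. Mxd1 at 2.27 stands apart from the other members, which lie between -1.01 and 1.10.

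Levels of different genes were compared only per length, as CPM per kilobase of merged exons. In control, Myc stood highest at 115 ± 10.9 CPM per kb (SD, n = 3), several times above the next genes. Mlx (19.5 ± 3.48), Mxi1 (17.5 ± 1.36) and Max (16.7 ± 0.0319) followed, and their libraries overlapped. Mnt was at 8.21 ± 0.654 CPM per kb and Mxd1 at 6.66 ± 1.92, again overlapping, and Mxd1 overlapped with Mlxip at 5.91 ± 1.09. Mxd3 (4.04 ± 0.894) and Mxd4 (3.20 ± 1.72) overlapped below these, the highest Mxd4 library reaching into the range of Mlxip, with Mycn lowest at 0.701 ± 0.767 CPM per kb. In KO, Myc was still highest at 69.0 ± 5.36 CPM per kb. Mxd1 was next at 32.1 ± 4.38 CPM per kb, with no library overlapping Mlx at 24.1 ± 1.32 or Max at 20.7 ± 1.58. Mxi1 (14.1 ± 1.30), Mnt (11.3 ± 1.52) and Mlxip (10.4 ± 0.663) formed an overlapping series, and Mxd4 (6.79 ± 1.25), Mxd3 (1.99 ± 0.609) and Mycn (1.56 ± 1.18) came last, the last pair overlapping. With the longest transcript as the length, Myc stayed first in both groups and Mxd1 second in KO, while Max moved to second place in control.

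The share of each gene among the transcripts of 8 MAX partners (Myc, Mycn, the 4 MXD genes, Mnt and Mga, per kilobase) was computed in each library. Myc took 68.6%, 70.6% and 68.1% in control and 50.8%, 44.7% and 46.5% in KO. Mxd1 took 3.35%, 3.74% and 4.79% in control and 19.6%, 23.4% and 22.9% in KO. For neither gene did the groups overlap, and Mxd1 passed from rank 5 to rank 2 by mean share. Together the 4 MXD genes took 18.9% ± 0.594 in control and 37.7% ± 2.89 in KO (SD, n = 3). Most of this rise was Mxd1, whose mean share went from 3.96% to 22.0%. The mean share of Mxd4 went from 1.88% to 4.67%, that of Mxi1 from 10.6% to 9.67% and that of Mxd3 from 2.48% to 1.39%. Myc and Mycn together took 69.5% ± 1.13 in control and 48.4% ± 3.14 in KO. Mnt and Mga together took 11.6% ± 0.915 and 13.9% ± 0.265. With the longest transcript as the length, the MXD genes took 22.6% ± 0.962 in control and 44.5% ± 3.21 in KO, beside 67.2% ± 1.26 and 44.1% ± 3.27 for Myc and Mycn together. These shares describe RNA and say nothing of protein amounts or of dimers formed.

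**Figure D3:**
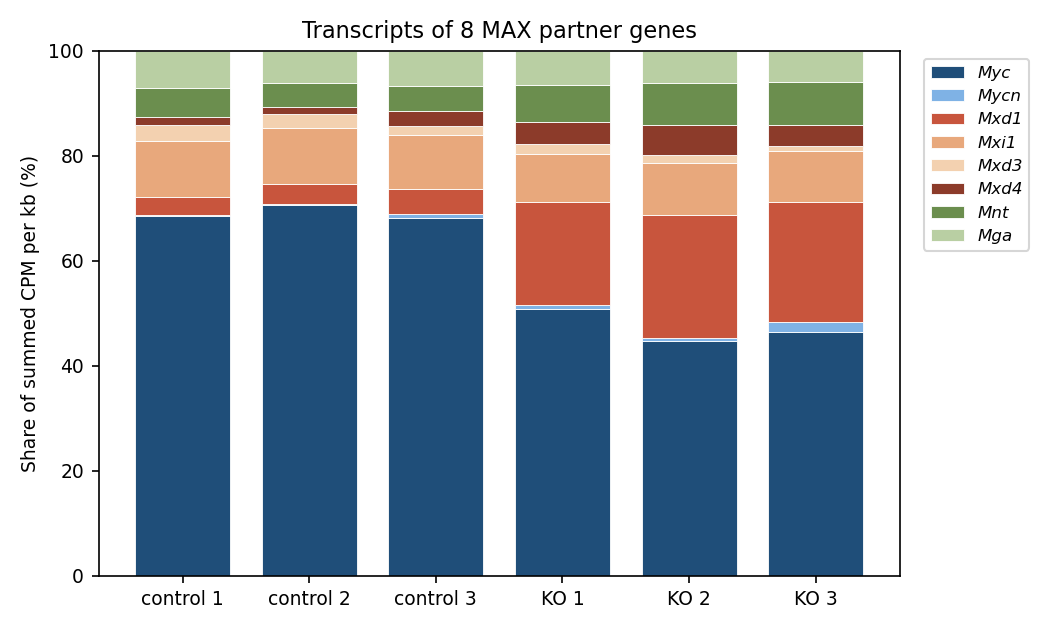
Share of each of 8 MAX partner genes in their summed CPM per kilobase of merged exons (vertical axis, percent, stacked to 100) in each of the 6 libraries. The Mxd1 segment is 3.35% to 4.79% in the control libraries and 19.6% to 23.4% in the KO libraries, and the Myc segment is 68.1% to 70.6% and 44.7% to 50.8%.

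Ratios of read counts within a library need no scaling between libraries. For each Mxd1 read there were 7.86, 7.25 and 5.46 Myc reads in the control libraries and 0.993, 0.734 and 0.781 in the KO libraries. The groups lay far apart. Per kilobase of merged exons, which allows a comparison of level between these genes of unequal length, the ratio of Myc to Mxd1 was 20.5, 18.9 and 14.2 in control and 2.59, 1.91 and 2.03 in KO, so Myc stayed above Mxd1 in every library. The mean ratio of Myc to Mxd1 counts was 8.20 times higher in control than in KO. The ratio of Myc to Max counts was 5.18 ± 0.489 in control and 2.52 ± 0.175 in KO, and that of Myc to Mnt counts 8.22 ± 0.765 and 3.61 ± 0.540 (SD, n = 3), with no overlap for either. For Myc to Mxi1 counts the difference was smaller, 2.60 ± 0.0529 against 1.95 ± 0.216, and both of these genes had negative log2 fold changes. The ratio of Mlxip to Mlx counts was 1.26, 0.875 and 1.82 in control and 1.74, 1.66 and 2.002 in KO, and there the groups overlapped.

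**Figure D4:**
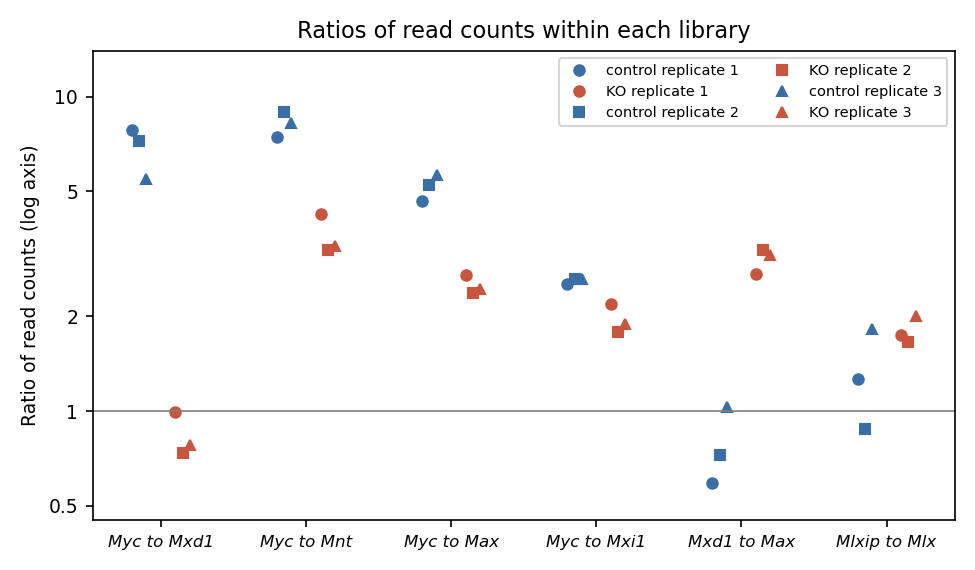
Ratio of read counts of the named gene pairs within each library (vertical log axis) for control libraries (blue) and KO libraries (red), with circles, squares and triangles for replicates 1, 2 and 3 and a grey line at a ratio of 1. The Myc to Mxd1 ratio lies between 5.46 and 7.86 in control and between 0.734 and 0.993 in KO.

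Genes around the network were read from lists of cofactors, corepressors, turnover factors and targets. Of 14 MYC cofactors, 5 were called lower, 2 higher and 7 were not called, with a median log2 fold change of -0.35. That 7 were called is close to the 46.1% called among all tested genes. The lower calls named here belong to acetyltransferase and remodelling complexes that MYC recruits. Ruvbl2, an ATPase of these complexes, averaged 162 ± 36.2 CPM in control libraries and 63.7 ± 14.9 CPM in KO libraries (SD, n = 3) and fell by 1.35 on the log2 scale (edgeR adjusted p = 0.00138), with 15.4% of its exonic bases overlapping genes on the opposite strand. Its partner Ruvbl1 fell by 0.77 on the log2 scale (adjusted p = 0.0106), but 49.4% of its 50-base stretches are shared with other genes, so it is uncertain. Trrap, the large scaffold of these complexes, fell from 233 ± 21.9 to 153 ± 18.4 CPM (-0.61, adjusted p = 0.00572). Actl6a fell by 0.65 on the log2 scale (adjusted p = 0.0260), with 11.6% of its exonic bases overlapping Mrpl47 on the opposite strand. The call of Actl6a did not hold without control replicate 1 (-0.74, adjusted p = 0.0557), control replicate 2 (-0.45, adjusted p = 0.0835), KO replicate 2 (-0.61, adjusted p = 0.0903) or KO replicate 3 (-0.58, adjusted p = 0.0845). The count of called cofactors was 3 without control replicate 1, without KO replicate 2 or without KO replicate 3, fits in which fewer genes were called throughout (5221 of 14991, 4460 of 14349 and 5038 of 14888), and 11 with the replicate block, where 53.5% of all tested genes were called.

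The SIN3-HDAC list holds the corepressor that MXD proteins and MNT recruit. Of 14 genes, 3 were called higher, 4 lower and 7 not, close to the shares among all tested genes (23.2% higher and 22.9% lower), with a median log2 fold change of 0.07, which was -0.01 without control replicate 1. Sin3b, a scaffold of the complex, averaged 99.7 ± 3.62 CPM in control libraries and 192 ± 21.5 CPM in KO libraries (SD, n = 3) and rose by 0.94 on the log2 scale (edgeR adjusted p = 0.000553). Sap30, an adaptor of the same complex, fell from 38.1 ± 7.05 to 9.76 ± 1.89 CPM (-1.96, adjusted p = 0.000251). The deacetylase gene Hdac1 rose from 244 ± 48.3 to 409 ± 31.5 CPM (0.74, adjusted p = 0.00564), with 35.3% of its 50-base stretches shared with other genes. Brms1 rose as well (1.22, adjusted p = 0.00163), but 79.0% of its exonic bases overlap another annotated gene, so this value is uncertain.

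Among 15 genes listed for turnover or ubiquitin attachment of the MYC protein, 3 were called higher, 7 lower and 5 not. Among all tested genes 23.2% were called higher and 22.9% lower. The list was not tested against these shares, and its median log2 fold change was -0.28. Without KO replicate 2, 6 genes of the list were called, in a fit that called 4460 of 14349 genes. Usp28, a deubiquitinase that stabilises MYC, averaged 25.7 ± 1.11 CPM in control libraries and 10.4 ± 0.918 CPM in KO libraries (SD, n = 3) and fell by 1.30 on the log2 scale (edgeR adjusted p = 0.000331). Aurka, a mitotic kinase that stabilises MYCN, fell from 72.3 ± 17.6 to 31.2 ± 9.24 CPM (-1.21, adjusted p = 0.00375). Cip2a, an inhibitor of the phosphatase that destabilises MYC, is listed in the table under its older symbol C330027C09Rik and fell from 95.8 ± 24.3 to 41.7 ± 14.5 CPM (-1.20, adjusted p = 0.00708). Fbxo28, a ubiquitin ligase subunit that acts on MYC, rose from 47.4 ± 3.46 to 90.3 ± 10.3 CPM (0.93, adjusted p = 0.000734). Other ligase genes of the list, named after their values were seen, were Huwe1, Skp2, Fbxw7 and Stub1. Huwe1 (-0.67, adjusted p = 0.00402) and Skp2 (-0.88, adjusted p = 0.0127) were called lower, and Fbxw7 and Stub1 were not called.

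Genes that MYC is known to activate were lower in KO where they were called, with a single exception. Of 22 nucleolar and ribosome-assembly genes, 11 were called lower and none higher, beside 22.9% lower and 23.2% higher among all tested genes. The list was chosen with earlier results of these data known and was not tested against these shares. All KO libraries lay below all controls for 7 of the 22 and above them for none. Among all tested genes 57.9% were separated in either direction. The median log2 fold change of the nucleolar list was -0.64. Tcof1, a factor for ribosomal RNA synthesis, averaged 198 ± 35.2 CPM in control libraries and 80.9 ± 23.4 CPM in KO libraries (SD, n = 3) and fell by 1.29 on the log2 scale (edgeR adjusted p = 0.00181). Npm1, nucleophosmin, fell from 2675 ± 271 to 1201 ± 300.5 CPM (-1.15, adjusted p = 0.00209), with 24.3% of its 50-base stretches shared with other genes, and Ncl, nucleolin, from 1974 ± 249.8 to 976 ± 239.9 CPM (-1.02, adjusted p = 0.00327). Polr1b, a subunit of RNA polymerase I, fell by 0.92 on the log2 scale (adjusted p = 0.0152), and this did not hold without control replicate 2 (adjusted p = 0.0530) or KO replicate 2 (adjusted p = 0.0660). The number called in this list depended on the libraries used: 7 without control replicate 1, 6 without control replicate 2, 18 without control replicate 3, 5 without KO replicate 2 and 7 without KO replicate 3. Of all tested genes, 7050 of 14347 were called without control replicate 3 and 4460 of 14349 without KO replicate 2. It was 17 with the replicate block and 18 with replicates 1 and 2 alone, where 44.3% of all tested genes were called.

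Of 23 metabolic, translation and cell cycle genes that MYC activates, 13 were called lower and 1 higher. Among all tested genes, 22.9% were called lower and 23.2% higher. This list too was chosen with earlier results of these data known and was not tested against these shares. Its median log2 fold change was -0.64. In this list, 9 were called without KO replicate 2 or without KO replicate 3, fits that called 4460 of 14349 and 5038 of 14888 genes. Shmt2, a mitochondrial enzyme of serine and folate metabolism, averaged 316 ± 77.3 CPM in control libraries and 91.2 ± 33.9 CPM in KO libraries (SD, n = 3) and fell by 1.79 on the log2 scale (edgeR adjusted p = 0.00140). Slc19a1, the folate carrier, fell from 53.2 ± 9.05 to 20.2 ± 9.60 CPM (-1.39, adjusted p = 0.00553). Ldha, lactate dehydrogenase, fell from 3113 ± 566 to 1272 ± 151 CPM (-1.29, adjusted p = 0.000743), and Cad, which starts pyrimidine synthesis, from 246 ± 52.8 to 111 ± 40.4 CPM (-1.15, adjusted p = 0.00693). The gene called higher, named after its value was seen, was Ccnd2, which encodes cyclin D2 (0.81, adjusted p = 0.00337).

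Among 8 tested genes that MYC is known to repress, 3 were called higher and 2 lower. Across all tested genes 23.2% were called higher and 22.9% lower, and the list was not tested against these shares. Its median log2 fold change was 0.10, which was -0.02 without control replicate 1. Gadd45a, a stress-response gene, averaged 9.18 ± 2.36 CPM in control libraries and 26.7 ± 3.64 CPM in KO libraries (SD, n = 3) and rose by 1.55 on the log2 scale (edgeR adjusted p = 0.000932), with 19.1% of its exonic bases overlapping another gene. Fth1, the ferritin heavy chain, rose by less (0.60, adjusted p = 0.00714), a call lost without control replicate 1 (0.45, adjusted p = 0.0714). Ndrg2 fell from 63.2 ± 8.82 to 16.6 ± 4.62 CPM (-1.93, adjusted p = 0.000384). Its relative Ndrg1, which also responds to hypoxia, fell by 1.14 on the log2 scale (adjusted p = 0.0269), a call lost without KO replicate 1 (-0.86, adjusted p = 0.0556) or KO replicate 2 (-1.04, adjusted p = 0.0950).

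Of 4 known targets of the MLXIP-MLX dimer, 1 was called higher, 1 lower and 2 were not called. These counts stand beside 23.2% called higher and 22.9% called lower among all tested genes. Txnip, its best known target and a brake on glucose uptake, held 82.6, 95.5 and 214 CPM in control and 103, 147 and 141 CPM in KO. Control replicate 3 was the highest library of all, and the log2 fold change was -0.01 (edgeR adjusted p = 0.988), or 0.49 without that library (adjusted p = 0.0381), and 19.4% of its exonic bases overlap Gm15441 on the opposite strand. Arrdc4, the related arrestin gene, held 2.25, 1.24 and 8.10 CPM in control and 4.52, 6.76 and 12.5 CPM in KO, with overlapping groups. Its log2 fold change was 1.01 (adjusted p = 0.228), or 2.19 without control replicate 3 (adjusted p = 0.00343) and 0.53 without KO replicate 3 (adjusted p = 0.575), and it passed the threshold under the replicate block (1.34, adjusted p = 0.0100) and for replicates 1 and 2 alone (1.76, adjusted p = 0.00460). Klf10 averaged 32.3 ± 1.71 CPM in control libraries and 44.5 ± 9.57 CPM in KO libraries (SD, n = 3) and was called higher by a narrow margin (0.47, adjusted p = 0.0484), with KO replicate 3 at 33.7 CPM inside the control range. Leaving out any other library ended this call, with values of 0.35 (without KO replicate 2) to 0.50 (without control replicate 2), while without KO replicate 3 it was 0.63 (adjusted p = 0.0110). Pfkfb3, which promotes glycolysis, fell from 72.3 ± 4.27 to 35.3 ± 4.04 CPM (-1.03, adjusted p = 0.000499).

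**Figure D5:**
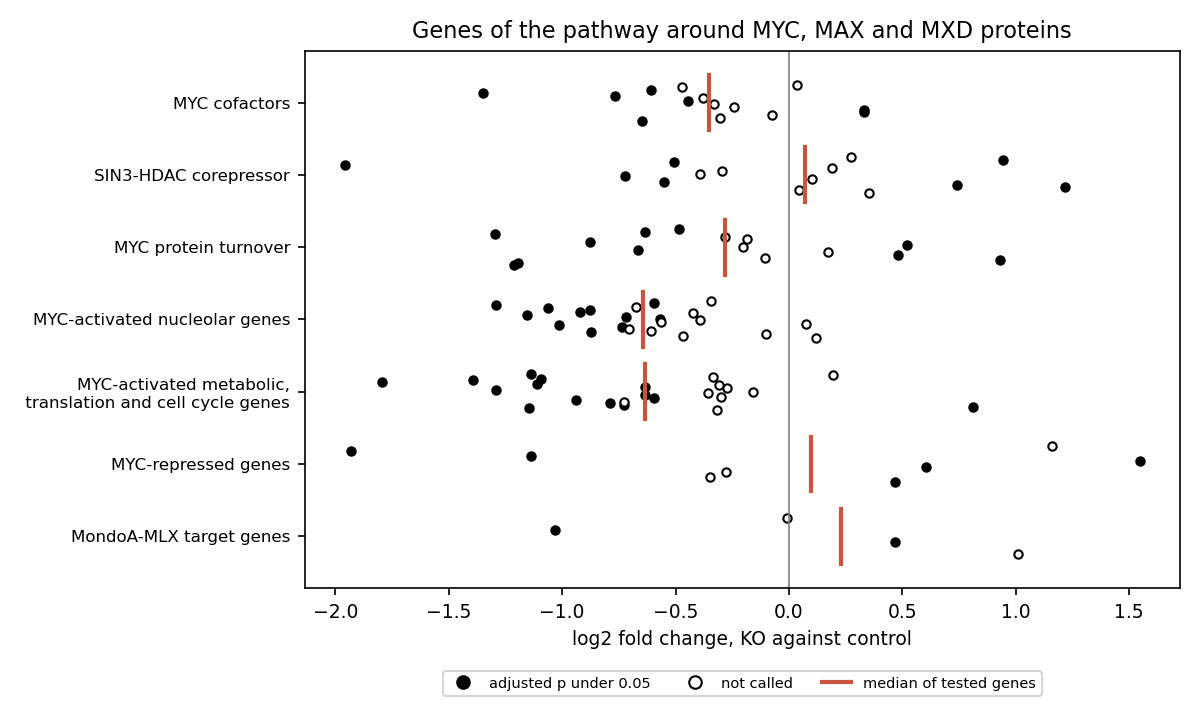
Log2 fold change (horizontal axis, KO against control) of each tested gene in 7 lists around the network, filled where the edgeR adjusted p was under 0.05, with a red line at the median of each list. The medians of both lists of MYC-activated genes lie at -0.64, and the SIN3-HDAC list spreads from -1.96 to 1.22.

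The 5 genes whose profile over the 6 libraries was nearest to that of Myc were Man2a1, Ikzf1, Fam78a, Tmem143 and Wdr91. Likeness was measured as the root mean square difference of log2 CPM, each gene centred on its own mean, among 9458 genes with at least 5 CPM. Man2a1, a Golgi mannosidase, was nearest at 0.0504 and held 116, 119.95 and 131 CPM in control and 79.99, 70.02 and 77.9 CPM in KO. Ikzf1, which encodes the lymphoid transcription factor Ikaros, followed at 0.0604 and held 371, 408 and 419 CPM in control and 266, 239 and 269.5 CPM in KO. The median difference from Myc over all genes compared was 0.441.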

How the data were processed

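RNA-seq counts of 3 control and 3 KO libraries of cultured Th17 cells were used, with groups and replicate numbers from the sample titles. The authors deposited raw whole-number counts per gene symbol; STAR, featureCounts, DESeq2 and the build mm10 are named in the submitters' processing notes, without versions. Annotation and strand setting are not given in the sources used here. Total counts per library were 16489813 to 51271226, and 0 columns lacked a sample and 0 rows a gene name. The tests use the spread between libraries, of which counting error is one part.

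KO was compared with control by edgeR's quasi-likelihood test (edgeR 4.0.16, R 4.3.3) with TMM factors, filterByExpr and Benjamini-Hochberg adjustment over 14268 genes. The SE was derived from the log2 fold change and the F statistic. Gene models came from GENCODE M21 (GRCm38) and promoters from RefSeq. The members and lists were chosen with earlier results of these data known. Named genes are the members, up to 4 called genes per list of largest absolute log2 fold change with at least 5 CPM and no overlap between groups, every gene of lists of 4 or fewer, and the 5 nearest profiles to Myc. Alternatives were other scalings, filters, DESeq2 1.42.0, a replicate block and subsets of libraries.

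Both groups carry replicate numbers 1, 2 and 3. Deviations from the group means correlated across genes at 0.270, 0.130 and 0.379 between libraries of equal number, each above 0.1. Libraries of equal number were therefore treated as pairs in the replicate block. Control 2 correlated more with KO 1 (0.204) than with KO 2 (0.130), so the pairing of replicates 1 and 2 is uncertain. Results under the replicate block carry this uncertainty. What a replicate number marks is not given in the sources used here, but in both groups it follows sex as read from Xist and Y-linked counts.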

Additional observations from a re-analysis of the deposited data

How the results depend on the processing

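All 10 members kept their direction under each of the 14 alternatives, and Myc, Mxd1 and Mlxip stayed called under each. Between 4460 and 7050 genes were called when 1 library was left out, against 6574 with all libraries, and 3 to 7 members against 7. Library size as the only scaling moved the median over all tested genes to 0.10 (log2) and raised the share of higher calls from 50.3% to 57.6%. When 1 library was left out, called genes numbered 3 to 8 among MYC cofactors, 6 to 10 among turnover genes, 5 to 18 among nucleolar genes, 9 to 20 among metabolic, translation and cell cycle genes, 7 to 10 in the SIN3-HDAC list and 4 to 5 among MYC-repressed genes. With the replicate block, which pairs libraries of equal number, 11 cofactors and 17 nucleolar genes were called, 7628 genes in all and 9 members, Mycn and Mxi1 among them. With replicates 1 and 2 alone, 18 nucleolar genes were called. Txnip (-0.01) changed sign with library size only (0.084), with the replicate block (0.11) and with replicates 1 and 2 alone (0.49), and ran from -0.30 to 0.49 when 1 library was left out, positive without control replicate 3 (0.49) or KO replicate 1 (0.13); the cause was not tested. With the longest transcript as length, the share of Myc among 8 MAX partners was 66.8% in control and 43.1% in KO, and that of Mxd1 was 4.99% and 26.0%; this follows from the lengths used. Mycn, with 13 counts in control replicate 1, is the member that depth limits most.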

Other observations

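Genes with CACGTG in a promoter window were counted by how they moved, with no test. Of tested genes with an entry in the promoter table, the motif was present in 12.2% of the 2443 called higher, 11.4% of the 2521 called lower and 11.3% of the 5433 not called. In the lists of MYC-activated genes it was present in 5 of 17 nucleolar genes with an entry and in 9 of 21 metabolic, translation and cell cycle genes, and in none of 6 MYC-repressed genes.

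The kinase Cdk9 and its cyclin Ccnt1, which form P-TEFb and release paused RNA polymerase II, were the cofactors called higher, named after their values were seen. Cdk9 held 100.9, 111.7 and 92.6 CPM in control and 122, 132 and 129.8 CPM in KO (log2 fold change 0.33, edgeR adjusted p = 0.0369). Ccnt1 held 145, 127 and 144 CPM in control and 166, 182 and 175 CPM in KO (0.33, edgeR adjusted p = 0.0343). Neither call held without control replicate 1, without KO replicate 2 or without KO replicate 3. In each of those fits the 3 cofactors called were Trrap, Ruvbl1 and Ruvbl2.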
